A study of Mus musculus with 4 samples.

Results

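Transcript levels of the Groucho/TLE family were examined in mouse embryonic stem cells that had lost Trim28. The family here is the 6 genes Tle1, Tle2, Tle3, Tle4, Tle6 and Aes, of 18820 genes measured. Aes is listed under its newer symbol, Tle5, in the array annotation. Each of the 6 was read from 1 probe set that is listed with that gene alone. The members were chosen because the Tle genes are lower together in the knockout, so their own changes are given as a description, without a test.

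Groucho/TLE proteins are co-repressors. They do not bind DNA themselves but are recruited by DNA-binding factors such as the TCF/LEF, Hes and Runx proteins and by homeodomain and forkhead factors that carry short Groucho-binding motifs. A full-length member, such as Tle1 to Tle4, has an amino-terminal part through which the proteins join each other and a carboxy-terminal WD-repeat propeller that holds the partner. In the Wnt pathway they sit on TCF/LEF factors at target genes until beta-catenin takes over.

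The knockout samples, labelled KAP_KO, are embryonic stem cells with the genotype KAP1 fl/fl, a floxed Trim28 (KAP1) allele, described as a knockout. The comparison samples, labelled KAP_WT, are wild-type embryonic stem cells. Both groups have 2 samples labelled as biological replicates, all 4 are labelled with 4-OH-tamoxifen, and all grew on irradiated mouse embryonic fibroblasts. The protocol gives 24 h of 4-hydroxytamoxifen or vehicle followed by 48 h without it, and the labels do not settle whether the wild-type cells are the parental line. An effect of the line and an effect of Trim28 loss cannot be told apart here. The driver of the recombinase is not given in the labels either.

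Each sample was hybridised to 1 Affymetrix Mouse Gene ST array, and values are log2 expression. Trim28, the targeted gene, read 8.97 and 8.92 in the knockout samples, against 11.29 and 11.37 in the wild-type samples (log2 change -2.38, SE 0.09, limma adjusted p = 3.39e-05). The stem cell factors Pou5f1, Nanog and Sox2 read between 9.69 and 10.86 in the knockout and between 10.65 and 11.33 in the wild type. Of 10 embryonic stem cell markers 7 fell and 0 rose, beside 12.7% of all genes called lower. Of 19 measured fibroblast markers, genes that the feeder cells also make, 15 rose and 0 fell, beside 14.2% called higher. Calls are by limma at an adjusted p under 0.05. The 7 falls became 1 when either wild-type sample was left out, and the 15 rises at least 11. Calls over all genes were also fewer when either of those samples was left out. The unlogged values of the stem cell markers summed, on the log2 scale, to 13.75 and 13.54 in the knockout and to 14.09 and 14.06 in the wild type. The same sum over the fibroblast markers was 13.09 and 13.24 in the knockout, against 11.94 and 11.65 in the wild type. No marker is listed at 0, and the lowest fibroblast marker value was 2.91. The part of these markers in the results below was not tested.

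Every member of the Groucho/TLE family was lower in the Trim28 knockout than in the wild type. The median of the 6 log2 changes was -0.56, beside -0.05 over all 18820 genes, and the changes ran from -1.46 in Aes to -0.21 in Tle2. In all 6 genes both knockout samples lay below both wild-type samples, a separation that 38.6% of all genes show in that direction. The genes were chosen from this same contrast, so nothing is read from that count. In such bulk samples, fewer cells that express a gene and less of its RNA per cell cannot be told apart.

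**Figure D1:**
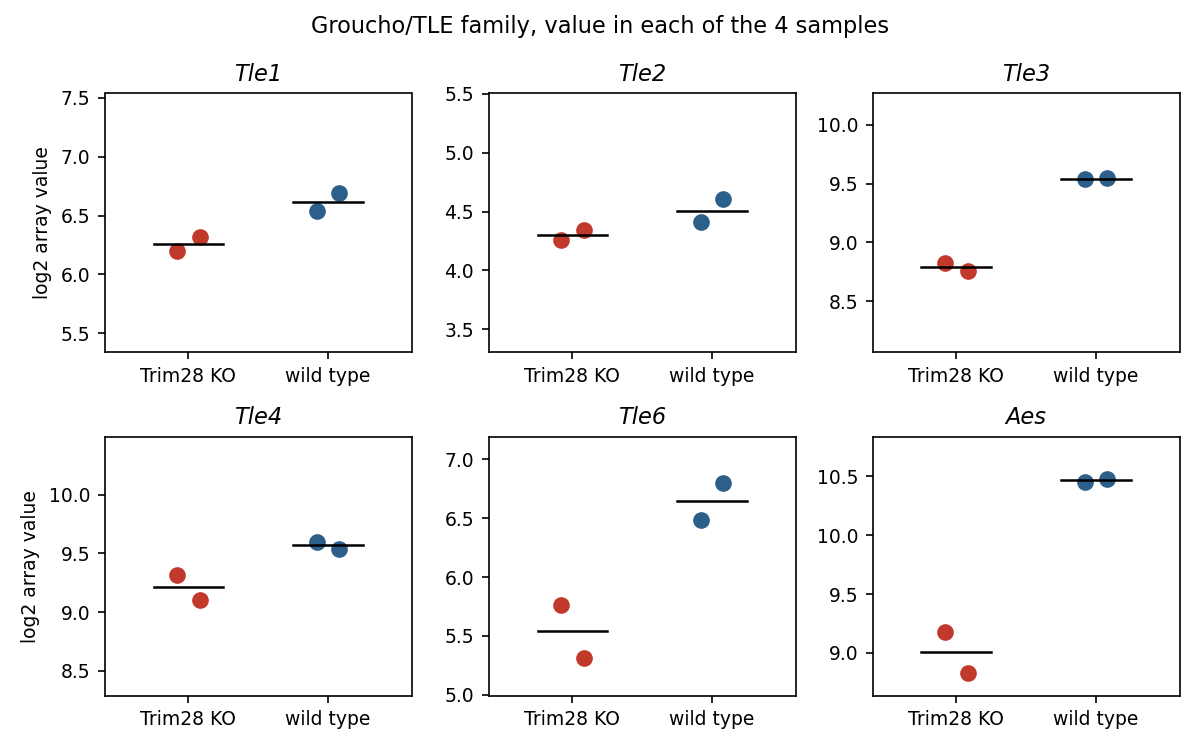
Log2 array value of each Groucho/TLE gene (vertical axis, with the same span in each panel) in the Trim28 knockout samples, left, and the wild-type samples, right. Points are the 2 samples of a group, replicate 1 at the left, and lines are group means. The groups are apart in all 6 genes, by the widest gap in Aes and the narrowest in Tle2.

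Aes showed the largest difference. It encodes a short family protein that keeps the amino-terminal part and lacks the WD-repeat propeller, and it can counteract the full-length members. Its values were 9.18 and 8.83 in the knockout samples, against 10.45 and 10.48 in the wild-type samples. The means were 9.005 ± 0.25 in the knockout and 10.47 ± 0.02 in the wild type (SD, n = 2 each), a log2 change of -1.46, so the knockout level was 36.3% of the wild-type level. The nearest knockout and wild-type values were 1.28 log2 units apart, and the knockout replicates 0.35. Of all genes 0.478% had a lower change. The choice of members from this contrast favours low shares, here and for the genes below.

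Tle6 came next. It is a divergent member, best known in the mouse as a part of the subcortical maternal complex of the oocyte and early embryo. It read 5.76 and 5.31 in the knockout samples and 6.49 and 6.80 in the wild-type samples. Its mean was 5.54 ± 0.32 in the knockout and 6.64 ± 0.22 in the wild type (SD, n = 2 each), a log2 change of -1.11 and a knockout level of 46.5%. Tle6 had the largest spread within groups of the 6 genes, with ranges of 0.45 in the knockout and 0.31 in the wild type. The gap between the groups was 0.73, in a contrast from which the members were chosen.

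Tle3 had the tightest replicates. This full-length co-repressor read 8.82 and 8.76 in the knockout samples and 9.54 and 9.55 in the wild-type samples, with means of 8.79 ± 0.05 in the knockout and 9.54 ± 0.01 in the wild type (SD, n = 2 each). The log2 change was -0.75, or 59.3% of the wild-type level, and 3.00% of all genes had a lower change. Of the family it lay closest to the mean profile of the 6 genes over the 4 samples, a mean to which each member contributes.

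Tle1 and Tle4, which are also full-length, differed by less and by nearly the same amount. Tle1 read 6.20 and 6.32 in the knockout samples, against 6.54 and 6.69 in the wild-type samples. Tle4 read 9.32 and 9.10 in the knockout samples, against 9.60 and 9.54 in the wild-type samples. The log2 change was -0.36 in each gene, and the knockout level 78.1% of the wild-type level in each. The gap between the groups, 0.22 in both genes, was close to the largest distance between replicates of a group, 0.16 in Tle1 and 0.21 in Tle4, and about 12.8% of all genes had a lower change.

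Tle2 differed least. It read 4.26 and 4.34 in the knockout samples and 4.41 and 4.60 in the wild-type samples, a log2 change of -0.21 with 86.5% of the wild-type level left. The gap of 0.07 between the groups was smaller than the 0.19 between the wild-type replicates. Both groups' values lay under the medians of the tested genes, which were 5.66 and 5.63 on the knockout arrays and 5.46 and 5.48 on the wild-type arrays. Signal over background is unknown at that level, and the array summary compresses differences among dim probe sets, so the small change of Tle2 is a statement about array values only.

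After centring of each array on its own median, the median change of the 6 genes was -0.72, beside -0.22 over all genes.

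The choice of members did not use position, and 3 of the 6 genes turned out to be neighbours. Aes, Tle2 and Tle6 follow each other on chromosome 10 with no other measured gene between them, in the order of the GRCm38.p6 annotation. Of these 3, the outer genes Aes and Tle6 were the most reduced of the family, and Tle2 between them was the least. Tle2 lay under the array medians, where small differences are compressed, so its array values cannot show that the middle gene changed less. Tle3 lies on chromosome 9, Tle1 on chromosome 4 and Tle4 on chromosome 19.

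Genes on both sides of this cluster fell too, and others did not. Among the 10 measured genes on either side, 7 of 20 fell and 1 rose, against 12.7% and 14.2% of all genes called in those directions by limma at an adjusted p under 0.05, and the median change was -0.29. The 3 genes that follow Tle6 all fell. BC025920, the nearest, read 4.85 and 4.63 in the knockout samples and 5.61 and 5.61 in the wild-type samples (log2 change -0.87, SE 0.11, limma adjusted p = 0.00158). Sirt6, which encodes a nuclear NAD-dependent deacylase, changed by -0.34 and Ankrd24 by -0.41. Beyond them the zinc finger genes Zfp781 and Zfp873 had changes of -0.0017 and 0.14, which did not pass.

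On the Aes side the picture was mixed. Gna11, a G protein alpha subunit gene and the direct neighbour of Aes, had a change of -0.05 that did not pass. Gna15, the next such gene, rose by 0.72, at 5.56 and 5.72 in the knockout samples and 4.82 and 5.01 in the wild-type samples (SE 0.11, limma adjusted p = 0.00395). S1pr4, a sphingosine phosphate receptor gene, and Ncln, a nicalin gene, had changes of -0.29 and 0.10 and did not pass, whereas Celf5, of an RNA-binding protein family, fell by 0.48 on the log2 scale. Beyond these 5 genes, Nfic, Smim24 and Dohh also fell, and they are named here after their values were seen. The count of 8 called neighbours was 7 without knockout replicate 1, 4 without knockout replicate 2, 3 when wild-type replicate 1 was left out and 2 when wild-type replicate 2 was. Over all genes fewer were called in each of these fits too, so the shares over all genes given above do not apply to these counts. BC025920 and Gna15 passed whichever sample was left out, and Smim24 failed only without wild-type replicate 2. The Celf5 call was lost without wild-type replicate 1 or 2 (limma adjusted p = 0.0657 and 0.0524), and that of Sirt6 when any of the 4 samples was left out (limma adjusted p between 0.0939 and 0.125). Ankrd24 and Nfic passed without knockout replicate 1 and in no other of these fits, and Dohh passed in none of them. The 7 calls without knockout replicate 1 include 1190007I07Rik, which is not among the 8.

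**Figure D2:**
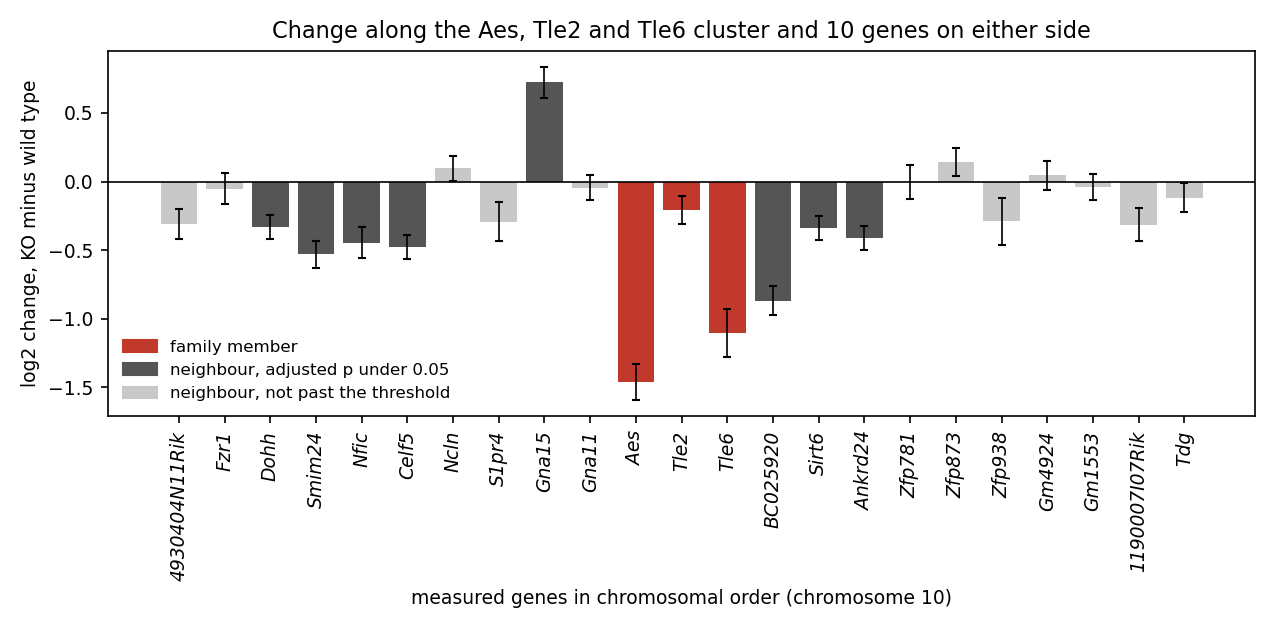
Log2 change, knockout minus wild type (vertical axis), of Aes, Tle2 and Tle6 and of the 10 measured genes on either side on chromosome 10, in chromosomal order. Error bars are limma standard errors from 2 samples per group. The deepest bars are Aes, Tle6 and BC025920, and Gna15 is the gene that rose.

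Of the 10 nearest measured genes around each of the other members, 2 passed for Tle1, 2 for Tle3 and 1 for Tle4, beside 5 of 10 around the cluster and 26.9% of all genes called in either direction. Among the 4 nearest measured genes of Tle3, namely Larp6, Uaca, Rplp1 and Kif23, 0 passed the test in either direction. Beside Tle1, Megf9 rose by 0.46, and Cdk5rap2, Aldoart1 and Gm11487 had changes of -0.13, -0.41 and 0.31 that did not pass. Beside Tle4, Psat1, a serine synthesis gene, fell by 0.73 on the log2 scale. Olfr1504, Olfr1505 and Cep78 had changes of -0.25, -0.24 and -0.21, which did not pass. Whether the neighbourhoods differ from each other was not tested.

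Promoter sequences were at hand for 5 of the 6 members, all except Aes, with 7 start sites in all, from RefSeq on GRCm38.p6. Each runs from 250 bases before the start site to 50 bases after it. They were searched on both strands for the core letters of the TCF/LEF motif, CTTTGA, of the motif of ZFP57, a zinc finger protein that recruits Trim28, TGCCGC, and for the E-box CACGTG, which was added after the sequences were read. Matches to the 3 motifs overlapped at 0 places in these promoters. None of the 7 promoters holds CTTTGA, which 16.0% of all 32851 promoters of this length hold. TGCCGC is in the promoters of Tle1 and Tle3, against 11.6% of all promoters. CACGTG is in 1 promoter each of Tle3, Tle4 and Tle6, and in 7.15% of all promoters. Since this motif was picked from these same sequences, nothing is read from that difference. The promoters with that E-box follow, 5′ to 3′ along the gene, with the E-box in capitals.
Tle3, chr9:61372116-61372415, plus strand: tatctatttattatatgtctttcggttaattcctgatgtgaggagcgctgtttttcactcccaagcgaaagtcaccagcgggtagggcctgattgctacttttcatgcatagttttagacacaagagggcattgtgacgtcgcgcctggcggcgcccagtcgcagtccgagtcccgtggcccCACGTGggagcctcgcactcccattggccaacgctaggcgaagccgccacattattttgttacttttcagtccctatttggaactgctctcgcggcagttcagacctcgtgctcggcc
Tle4, chr19:14598134-14598433, minus strand: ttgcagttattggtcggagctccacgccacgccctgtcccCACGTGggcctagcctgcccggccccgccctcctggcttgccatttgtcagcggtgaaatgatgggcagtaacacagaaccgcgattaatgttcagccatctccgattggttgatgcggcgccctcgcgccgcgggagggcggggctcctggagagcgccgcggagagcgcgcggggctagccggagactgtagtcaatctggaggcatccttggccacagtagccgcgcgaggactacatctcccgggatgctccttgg
Tle6, chr10:81600851-81601150, minus strand: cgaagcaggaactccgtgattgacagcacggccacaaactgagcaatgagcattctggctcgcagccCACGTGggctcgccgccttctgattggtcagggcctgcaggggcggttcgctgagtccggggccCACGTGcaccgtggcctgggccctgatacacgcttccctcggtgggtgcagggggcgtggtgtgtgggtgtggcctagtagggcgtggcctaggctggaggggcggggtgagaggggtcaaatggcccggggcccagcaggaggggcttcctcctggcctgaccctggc

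The E-box occurs once in the Tle3 and Tle4 promoters and at 2 places in that of Tle6. GC content was 53.7% in the Tle3 promoter, 65.0% in that of Tle4 and 68.0% in that of Tle6, with 21, 28 and 18 CpG dinucleotides. Over all promoters the median was 52.7% GC and 7 CpG dinucleotides. Tle2, the member with the smallest change, has 28 CpG dinucleotides in its promoter and none of the 3 motifs. A match of letters describes the sequence and does not show a bound site.

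Partner and pathway genes of the Groucho/TLE proteins went both ways. Over 10 lists of partner and pathway genes, 83 of 96 genes were measured, of which 18 rose and 13 fell. That is 37.3% called, against 26.9% of all genes, and the median change was 0.01. The lists were chosen with earlier results of these data known, so nothing is read from that difference. With array medians subtracted 14 rose and 28 fell, where 11% of all genes were called higher and 34% lower. Those shares also apply to the lists below in that setting. Leaving out either wild-type replicate lowered the calls over all genes too. Without wild-type replicate 1 the count of 31 calls was 13, and without wild-type replicate 2 it was 15.

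The TCF/LEF factors split. Lef1, in the mouse an effector of Wnt signalling, read 7.78 and 7.74 in the knockout samples and 5.81 and 5.55 in the wild-type samples, a rise of 2.08 (SE 0.11, limma adjusted p = 9.14e-05). Tcf7l1, the main repressing factor of the family in mouse embryonic stem cells, read 7.92 and 7.86 in the knockout samples and 8.65 and 8.56 in the wild-type samples. The log2 change was -0.72 (SE 0.09, limma adjusted p = 0.00203), beside -0.75 in Tle3. Tcf7l2 had a change of -0.18 (limma adjusted p = 0.213) and passed with array medians subtracted, and Tcf7 was not measured by a probe set of its own.

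Genes that respond to Wnt signalling included several large rises. Of the 11 on the array, 6 rose and 0 fell, against 14.2% of all genes called higher, with a median change of 0.46. This list too was chosen with earlier results of these data known. Axin2, a feedback inhibitor of the pathway, read 7.32 and 7.84 in the knockout samples and 5.23 and 5.16 in the wild-type samples (log2 change 2.38, SE 0.17). The transcription factor gene Sp5 read 6.63 and 7.70 in the knockout samples, against 4.65 and 4.77 in the wild-type samples (log2 change 2.46, SE 0.31). Nkd1, another feedback inhibitor, rose by 1.43 and the secreted inhibitor gene Dkk1 by 0.76. The smaller rises were those of Znrf3 (0.49) and Sp8 (0.37). Rnf43 and Notum had changes of 0.01 and -0.36 and did not pass. With array medians subtracted 5 rose and 1 fell. The count of rises was 8 without knockout replicate 1, 3 without knockout replicate 2, 3 when wild-type replicate 1 was left out and 4 when wild-type replicate 2 was, while Axin2, Sp5 and Nkd1 passed in all 12 alternatives. The fibroblast markers, higher in the same samples, are given above.

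Beta-catenin and its co-activators moved little. Of 7 measured genes 1 rose, Bcl9l by 0.52, and 0 fell, beside 14.2% and 12.7% of all genes, with a median of 0.03. Centring the arrays on their medians gave 1 rise and 2 falls. Leaving out knockout replicate 2 or either wild-type sample ended that call (limma adjusted p = 0.0613, 0.101 and 0.0544).

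Hes factors, which recruit Groucho/TLE proteins downstream of Notch, gave no call among 6 measured genes by limma, with 0 at an adjusted p under 0.05 and 1 at an unadjusted p under 0.05 (Hes6, with a change of 0.34). Hes1 read 9.08 and 7.94 in the knockout samples, wider apart than its 8.27 and 8.52 in the wild-type samples. Knockout replicate 1 of Hes1 lay above both wild-type values and replicate 2 below both, so its direction depends on the sample kept. Without knockout replicate 2 the changes of Hes1 and Hes6 were 0.69 and 0.47. With array medians subtracted Hes5 passed as lower. Among 7 receptors and targets of the Notch pathway 2 rose and 1 fell, beside 14.2% and 12.7% of all genes. Notch3, a receptor gene, rose by 1.499, Nrarp by 0.86, and Dtx1 fell by 0.75 on the log2 scale. With array medians subtracted 2 rose and 2 fell. The Dtx1 call was lost without wild-type replicate 2 (limma adjusted p = 0.0861), and that of Nrarp without wild-type replicate 1 (limma adjusted p = 0.0574).

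Runx factors end in a motif that Groucho/TLE proteins bind. Runx1 read 6.73 and 7.08 in the knockout samples and 4.91 and 4.69 in the wild-type samples, a rise of 2.11 (SE 0.14, limma adjusted p = 1.68e-04). Runx3 fell by 0.32 on the log2 scale, a call lost when any of the 4 samples was left out (limma adjusted p between 0.0982 and 0.134). Without knockout replicate 1 Cbfb, the gene of the Runx partner subunit, passed as higher by 0.52.

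Among 24 measured homeodomain, paired, forkhead, T-box and related partners, 3 rose and 5 fell, beside 14.2% and 12.7% of all genes. The median change was -0.04. Foxd3, a stem cell factor with a Groucho-binding motif, read 5.59 and 5.58 in the knockout samples and 7.22 and 7.28 in the wild-type samples. Its log2 change of -1.66 (SE 0.09) was the lowest of the list. Gbx2 and Hesx1, both homeodomain repressors, fell by 0.96 and 0.93, and Hhex and Pax8 had log2 changes of -0.51 and -0.44. The forkhead genes Foxa1 and Foxa2 rose by 0.76 and 0.61 and the homeodomain gene Nkx2-2 by 0.44. With array medians subtracted 2 rose and 8 fell. In the knockout 16 of the 24 genes lay under the array medians. Leaving out wild-type replicate 1 gave 1 rise and 3 falls, leaving out wild-type replicate 2 gave 0 rises and 2 falls, and leaving out knockout replicate 2 gave 3 of each. Foxd3 and Gbx2 passed whichever sample was left out, whereas Foxa2 and Nkx2-2 lost their calls when either wild-type sample was left out, and Nkx2-2 also without knockout replicate 2. The Hesx1 call was lost without wild-type replicate 1 or 2 (limma adjusted p = 0.0662 and 0.0743), and that of Foxa1 without wild-type replicate 2 (limma adjusted p = 0.0624).

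**Figure D3:**
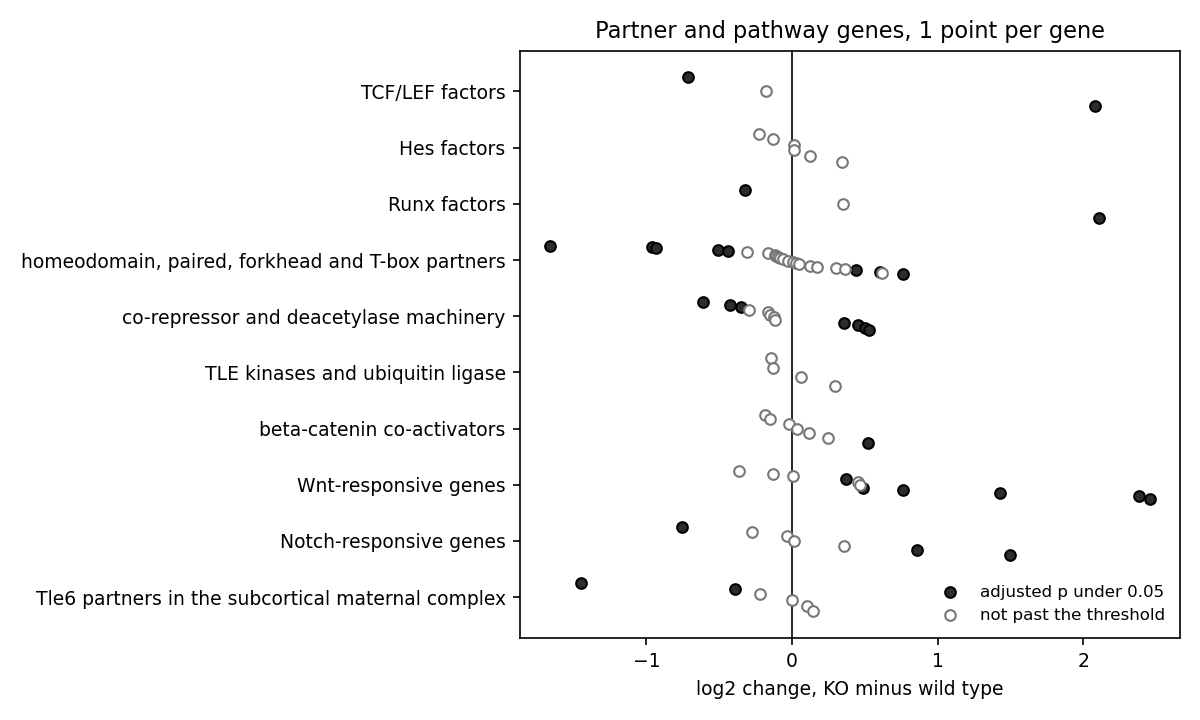
Log2 change, knockout minus wild type (horizontal axis), of each measured partner or pathway gene of the Groucho/TLE family, 1 row per list and 1 point per gene, from 2 samples per group. Filled points passed limma's adjusted p of 0.05. The Wnt-responsive row extends to 2.46, and the Hes row and the row of kinases and ubiquitin ligase hold no filled point.

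The enzymes and scaffolds that work with Groucho/TLE proteins on chromatin went both ways. Of 12 co-repressor and deacetylase genes 4 rose and 3 fell, beside 14.2% and 12.7% of all genes, with a median of -0.14. Sin3b, Tbl1x, Ctbp1 and Rbbp7 rose, by 0.53, 0.50, 0.45 and 0.36. Rcor2, Rcor1 and Sin3a had log2 changes of -0.61, -0.42 and -0.35. The deacetylase genes Hdac1, Hdac2 and Hdac3 had changes of -0.13, -0.15 and -0.12 that did not pass. These 3 and Rbbp7, Rcor1 and Sin3a are named after their values were seen. With array medians subtracted 2 rose and 8 fell. Without wild-type replicate 1 the counts were 0 and 0, and without wild-type replicate 2 they were 3 and 0. Of 4 measured genes for kinases and a ubiquitin ligase that act on Groucho/TLE proteins, 0 passed by limma at an adjusted p under 0.05, and 1 had an unadjusted p under 0.05 (Hipk2, with a change of 0.29). With array medians subtracted Csnk2a1 passed as lower.

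Tle6 has partners of its own in the subcortical maternal complex. Of 6 measured genes 2 fell and 0 rose, beside 12.7% and 14.2% of all genes, with a median change of -0.11. Ooep, a component of the complex, read 8.76 and 8.38 in the knockout samples and 9.96 and 10.07 in the wild-type samples. The log2 change was -1.450 (SE 0.14, limma adjusted p = 6.24e-04), beside -1.11 in Tle6. Padi6 fell by 0.39 at values between 3.03 and 3.54, a call lost when any of the 4 samples was left out (limma adjusted p between 0.0597 and 0.149). Nlrp5 and Khdc3 had changes of 0.14 and -0.22, which did not pass.

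The genes outside the family whose values ran closest to its mean profile were Mmp11, Ftsj1 and Ppm1n. The measure was the Euclidean distance between gene-centred log2 values over the 4 samples, and their distances were 0.04, 0.04 and 0.05. Mmp11 read 7.27 and 7.08 in the knockout samples and 7.83 and 7.95 in the wild-type samples. Of the members themselves Tle3 was at 0.10, with 53 genes outside the family closer, and Aes at 0.77, with 12096 closer. Each member is part of the mean profile, which shortens its own distance, and the outside genes are not. With 4 samples many genes fall near any profile of this shape.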

How the data were processed

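Log2 values of 35556 probe sets in 4 samples were used as deposited. Per the submitters' processing notes the authors used affy and RMA, versions not given, on Affymetrix Mouse Gene ST arrays from 250 ng RNA, per the labels' protocols. RMA models background and normalises arrays, which compresses small differences among dim probe sets. The platform annotation gave 21218 probe sets 1 symbol, 1881 several and 12457 none. For each of 18820 genes the single-gene probe set with the highest mean was kept. Groups came from sample titles. KAP_KO was compared with KAP_WT across all genes by limma 3.58.1 in R 4.3.3 (lmFit, eBayes, two-sided, Benjamini-Hochberg, threshold 0.05), with 2 residual and 4.70 prior degrees of freedom, after a check on simulated data. Neighbours followed GRCm38.p6 order. No detection calls were used, so whether dim probe sets report expressed genes is not known. With 2 arrays a group, the number of arrays limits precision. The p-values measure the spread between these samples only.

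The members and lists were chosen with earlier results of these data known. Genes named by rule were the members, Trim28, Pou5f1, Nanog, Sox2 and the TCF/LEF factors. So were up to 4 called members of each other partner or pathway list with the largest changes. The nearest neighbours and the 3 genes of closest profile were also named by rule. Others were named after their values were seen. Figures were drawn with matplotlib 3.10.9.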

Additional observations from a re-analysis of the deposited data

How the results depend on the processing

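The settings tried were the replicate number as a block, an intensity trend, a robust prior, dropping genes under the lower quartile or under the median level, a further quantile normalization, array medians subtracted, averaged probe sets per gene, each sample left out, other window sizes and an adjusted p under 0.1. The family median of -0.56 was -0.75 with genes under the median level left out, since Tle2 then drops out, and -0.72 with array medians subtracted, and it ranged from -0.62 to -0.57 with single samples left out. The direction of these values was fixed by the choice of members.

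Calls over all genes, 5071, were 8457 with array medians subtracted (2065 higher and 6392 lower, against 2676 and 2395) and ranged from 2430 to 4350 with single samples left out. After quantile normalization 2499 were higher and 2855 lower. Calls among the partner genes (31) ranged from 13 to 31 with single samples left out. Of the 20 chromosome 10 neighbours, 8 were called, 4 with genes under the median level left out, and from 2 to 7 with single samples left out. With 5 genes on either side 5 of 10 were called, and with 20 on either side 14 of 40. The median-level filter took BC025920 and Gna15, among others, out of the test. With array medians subtracted 11 of the 20 neighbours were called, 10 of them lower, while 34% of all genes were called lower. A sample left alone in its group is assumed to vary like the others.

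Rule-picked genes outside the family gave 517 values under these settings. They are Trim28, Pou5f1, Nanog, Sox2, the TCF/LEF factors and the 5 measured neighbours on either side of the chromosome 10 cluster. Up to 4 called genes of each other list, marker lists included, complete the set. Many genes named above, such as Hes1, are not in it. Of the 517 values 458 kept their direction and their side of the threshold, while 52 lost and 2 gained a call. The other 5 changed sign, none of them called. They were values of Gna11 (from -0.091 to 0.00058 with single samples left out) and Zfp781 (from -0.13 to 0.13 likewise). With array medians subtracted Ncln (-0.073) and Zfp873 (-0.025) also changed sign. The cause was not tested.

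With the replicate block 5093 genes, 33 partner genes and 8 neighbours were called, and the family median was -0.56. Over genes, deviations of same-numbered samples correlated at 0.15. The numbers are not said to mark a shared culture or day, so the block is an alternative only. It ended the calls of Nanog (limma adjusted p = 0.0511) and Runx3 (limma adjusted p = 0.0502).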

Other observations

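Farther along chromosome 10 genes went both ways. Among the measured genes 11 to 20 places beyond Tle6, Slc41a2, a magnesium transporter gene, read 5.01 and 5.33 in the knockout samples and 4.22 and 4.11 in the wild-type samples, a rise of 1.00 (SE 0.13, limma adjusted p = 0.00185). Chst11 and D10Wsu102e rose by 0.62 and 0.39. Aldh1l2, a mitochondrial folate enzyme gene in the same stretch, read 4.16 and 3.98 in the knockout samples and 4.89 and 5.04 in the wild-type samples, and it fell by 0.90 on the log2 scale. Nfyb, which encodes a subunit of the CCAAT-binding factor NF-Y, fell by 0.48 on the log2 scale. These genes were named after their values were seen. Over 20 genes on either side 10 fell and 4 rose, with a median change of -0.08, beside -0.29 over 10 on either side.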
